A study of Caenorhabditis elegans with 4 samples.

Results

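The touch receptor neurons of Caenorhabditis elegans (ALM, AVM, PVM and PLM) feel gentle touch along the body wall, and 10 genes that build or specify them were followed here through the removal of a topoisomerase together with DPY-27. The genes are mec-2, mec-3, mec-4, mec-7, mec-9, mec-10, mec-12, mec-17, mec-18 and unc-86, taken by sequence name from the authors' deposited tables, and all 10 were found in both tables among 17491 genes listed in either. Of these 10 genes, 5 lie on the X chromosome (mec-2, mec-4, mec-7, mec-10 and mec-18) and 5 on autosomes (mec-3 and mec-17 on IV, mec-12 and unc-86 on III, mec-9 on V).

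In these neurons a DEG/ENaC sodium channel of the pore subunits MEC-4 and MEC-10 is held with the stomatin-like protein MEC-2 at spots along the process, attached to a specialised extracellular matrix that includes MEC-9. The process is filled with wide microtubules made of the β-tubulin MEC-7 and the α-tubulin MEC-12, which the acetyltransferase MEC-17 modifies. The fate of the cells is set by the POU homeodomain protein UNC-86, which switches on mec-3, a LIM homeodomain gene, and both proteins then act together on the other touch neuron genes. UNC-86 is also made in many other neurons, and MEC-3 in the FLP and PVD neurons.

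RNA came from whole L2/L3 larvae, hatched as starved L1 larvae, grown for 24 h at 22 °C and then kept for 2 h on 1 mM auxin, which destroys degron-tagged proteins in animals that make the plant protein TIR1. Strain AM11 carries top-2::degron::GFP and dpy-27::degron::GFP, and strain AM12 carries top-1::degron::GFP and dpy-27::degron::GFP, with 2 libraries each. TOP-2 and TOP-1 are topoisomerases II and I, and DPY-27 belongs to condensin DC, which lowers expression from the X of hermaphrodites, so both groups lack DPY-27 and no group lacks a topoisomerase alone. They are called TOP-2-depleted (AM11) and TOP-1-depleted (AM12) larvae below, always with DPY-27 removed as well. The authors compared each group with the strain CA1200, also after 2 h on auxin, a strain known to make TIR1 from the eft-3 promoter and without the tagged alleles. No CA1200 library is among the 4 samples described here. Differences of strain or batch from that control therefore cannot be told apart from the depletions. In whole-animal RNA, fewer cells of a type and less RNA per cell cannot be told apart.

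The tables hold, for each gene, the mean normalized count over the libraries of a comparison (read counts scaled for library depth), the log2 fold change of depletion over control with its standard error (SE), and an adjusted p. No value per library is in them. Group levels were therefore solved from the mean and the fold change, for 2 depleted and 2 control libraries. With 2 control libraries the control levels of 7193 well-expressed genes matched between both tables, to a median of 0.174% after a common shift of 3.18%, whereas 1, 3 or 4 control libraries left median gaps of 3.39%, 1.82% and 3.11%. Solved levels carry no replicate error and are given as descriptions. They serve here to show which genes have low counts, though the SE of a fold change does not follow the level alone. Control levels of single genes are those of the comparison of TOP-2-depleted larvae unless stated otherwise.

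In TOP-2-depleted larvae, 7 of the 10 touch receptor neuron genes fell, none rose and 3 did not pass an adjusted p of 0.05, against a background of 7.47% of 14958 tested genes that fell and 14.1% that rose. In TOP-1-depleted larvae, 9 of 10 fell, none rose and 1 did not pass, against a background of 12.8% of 14854 genes that fell and 17.1% that rose. The median log2 fold change of the 10 genes was -1.30 in the first comparison and -2.22 in the second, where all tested genes had medians of -0.00 and 0.01. Both comparisons share the control libraries, so their values are set side by side and are not independent of each other. All 10 fold changes lay below 0 in each table, from -2.60 to -0.17 and from -2.67 to -0.65.

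**Figure D1:**
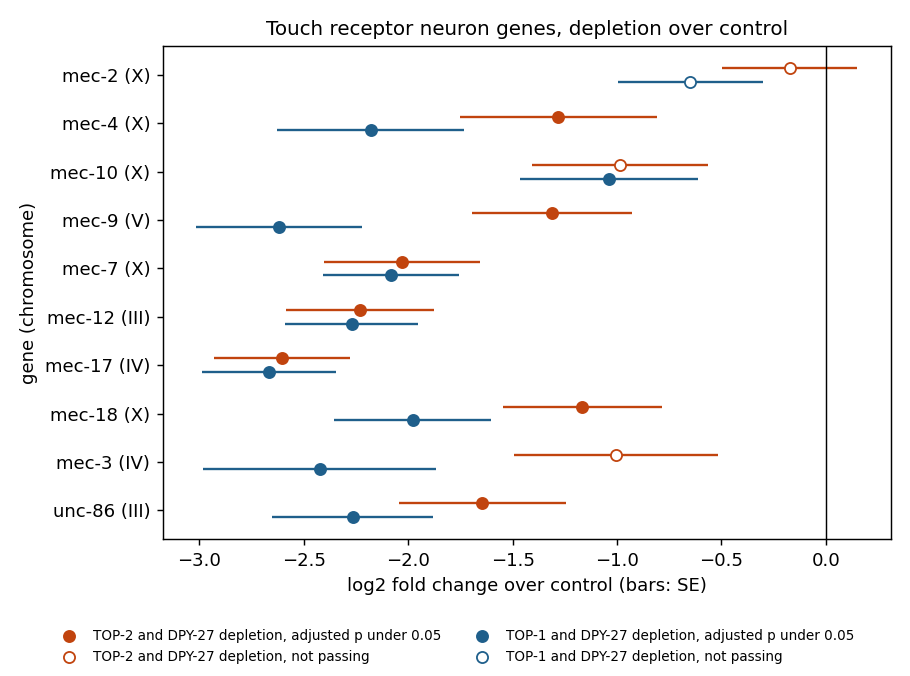
Log2 fold change over control (x axis, authors' deposited values, bars are SE) of the 10 touch receptor neuron genes, with chromosomes in brackets, in TOP-2-depleted larvae (orange) and TOP-1-depleted larvae (blue). Filled points passed an adjusted p of 0.05; open points, mec-2 in both comparisons and mec-10 and mec-3 in the first, did not, and all 10 genes lie left of 0.

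The microtubule genes mec-7, mec-12 and mec-17 were the most abundant of the set and fell about equally in both comparisons. The level of mec-7 (ZK154.3), the β-tubulin gene, was 11538 normalized counts in the control, 2831 in TOP-2-depleted larvae and 2648 in TOP-1-depleted larvae. The authors' deposited tables gave its log2 fold changes as -2.03 ± 0.37 (adjusted p 1.15e-06) and -2.08 ± 0.33 (adjusted p 4.03e-09). Between 23.6% and 24.5% of the control level in the same comparison was left.

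The α-tubulin gene mec-12 (C44B11.3) stood at 11255 normalized counts in the control, at 2397 in TOP-2-depleted larvae and at 2264 in TOP-1-depleted larvae. In the authors' deposited tables this was -2.23 ± 0.35 (adjusted p 8.01e-09) and -2.27 ± 0.32 (adjusted p 4.91e-11) on the log2 scale. Control levels of the tubulin pair were close to each other per length too, at 7377 normalized counts per kb of exon for mec-7 and 6982 for mec-12, and in TOP-2-depleted larvae they were 1810 and 1487 per kb.

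The acetyltransferase gene mec-17 (F57H12.7) had the lowest fold change of the 10 in each table. Its level was 3489 normalized counts in the control, 574 in TOP-2-depleted larvae and 532 in TOP-1-depleted larvae. Of the control levels in each comparison, 3489 and 3378, 16.4% and 15.7% were left. The authors' deposited tables gave -2.60 ± 0.33 (adjusted p 9.85e-14) and -2.67 ± 0.32 (adjusted p 5.83e-15). Only 1.37% and 1.60% of the genes with a mean of at least 10 had a lower fold change than mec-17.

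**Figure D2:**
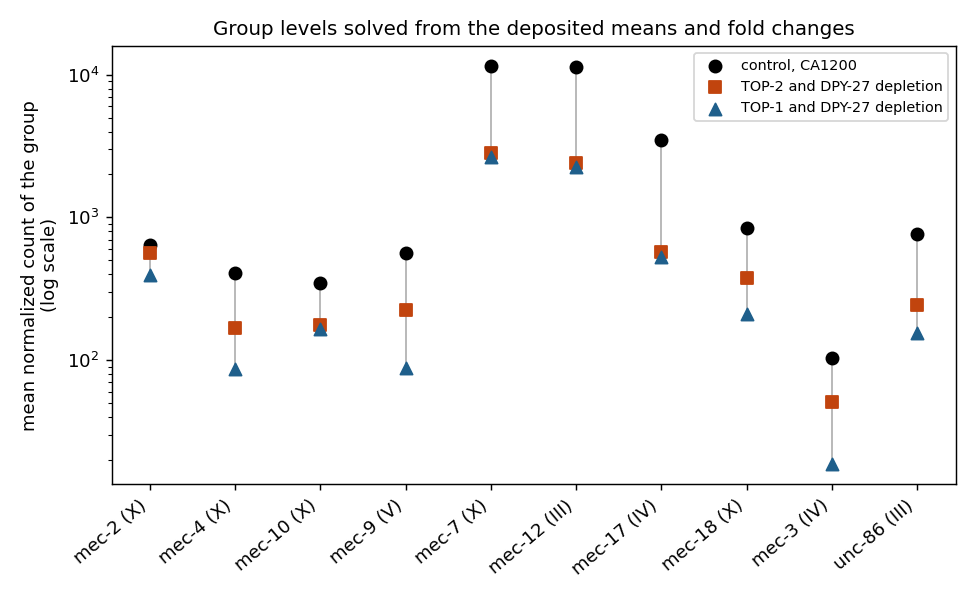
Mean normalized count of each group (y axis, log scale) for the 10 genes, solved from the deposited means and fold changes for 2 libraries a group. Circles are the control on the scale of the first comparison, squares TOP-2-depleted larvae and triangles TOP-1-depleted larvae on the scale of the second. For mec-7, mec-12, mec-17 and mec-10 the 2 depletions nearly coincide below the control, whereas for mec-9 (225 against 88.5) and mec-3 (51.3 against 18.6) the triangle lies well below the square.

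Among the channel genes the pore subunit mec-4 (T01C8.7) fell in both comparisons. Its level was 405 normalized counts in the control, 167 in TOP-2-depleted larvae and 87.1 in TOP-1-depleted larvae. The authors' deposited tables gave -1.28 ± 0.47 (adjusted p 0.0345) and -2.18 ± 0.45 (adjusted p 1.41e-05). The first of these calls is lost at a threshold of 0.01.

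Of the other pore subunit, mec-10 (F16F9.5), 348 normalized counts in the control stood against 176 and 165 in TOP-2-depleted and TOP-1-depleted larvae. This was -0.99 ± 0.42 (adjusted p 0.0776) and -1.04 ± 0.43 (adjusted p 0.0496) in the authors' deposited tables, so the nearly equal changes lie on either side of the threshold. The call in TOP-1-depleted larvae is also lost when p-values are adjusted over every gene with a p (adjusted p 0.0574). Levels per length of the pore subunits were alike in the control, at 170 normalized counts per kb for mec-4 and 140 for mec-10, and in TOP-1-depleted larvae they were 36.6 and 66.1 per kb.

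The stomatin-like gene mec-2 (F14D12.4) did not pass in either comparison. Its level was 639 normalized counts in the control, 567 in TOP-2-depleted larvae and 395 in TOP-1-depleted larvae, with log2 fold changes of -0.17 ± 0.32 (adjusted p 0.771) and -0.65 ± 0.35 (adjusted p 0.15) in the authors' deposited tables. The 95% intervals of these values end at 0.46 and 0.03. All isoforms of a gene are counted together in these tables, and mec-2 is by far the longest of the 10 genes, spanning 23077 bases in the WBcel235 annotation with 5764 bases of exon.

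The matrix gene mec-9 (C50H2.3) fell from 560 normalized counts in the control to 225 in TOP-2-depleted larvae. In TOP-1-depleted larvae it stood at 88.5, against a control of 544 on that table's scale. The authors' deposited tables gave -1.31 ± 0.38 (adjusted p 0.00476) and -2.62 ± 0.40 (adjusted p 1.29e-09), which leaves 40.3% and 16.3% of the control level. The gene mec-18 (C52B9.9), whose product belongs to the acyl-CoA synthetase family, fell from 847 normalized counts in the control to 378 and 209. Its log2 fold changes in the authors' deposited tables were -1.17 ± 0.38 (adjusted p 0.0145) and -1.98 ± 0.38 (adjusted p 2.22e-06).

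Of the transcription factor genes, unc-86 (C30A5.7) fell in both comparisons, from 764 normalized counts in the control to 245 and 154.33. The authors' deposited tables gave -1.64 ± 0.40 (adjusted p 0.000444) and -2.27 ± 0.38 (adjusted p 7.60e-08). Its target mec-3 (F01D4.6) was the least abundant of the set, at 103 normalized counts in the control, 51.3 in TOP-2-depleted larvae and 18.6 in TOP-1-depleted larvae. It did not pass in the first comparison (-1.01 ± 0.49, adjusted p 0.134 in the authors' deposited table) and fell in the second (-2.42 ± 0.56, adjusted p 0.000126 in the authors' deposited table). The larger SEs of mec-3 go with its low count.

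The X genes of the set lay below the median of their chromosome. X genes with a mean of at least 10 had a median log2 fold change of 0.54 in TOP-2-depleted larvae and 0.68 in TOP-1-depleted larvae, where autosomal genes had -0.13 and -0.14. The 5 X members had medians of -1.17 and -1.98, and the 5 autosomal members of -1.64 and -2.42. Measured from the median of its own chromosome class, every member was below it in both tables, the X members by a median of -1.71 and -2.66 and the autosomal members by -1.52 and -2.28. On this scale mec-7 was at -2.57 and -2.76, below mec-17 at -2.48 and -2.53. With the median of the chromosome class as the null value in place of 0, mec-10 passed in TOP-2-depleted larvae (-1.53, adjusted p 0.00241) and mec-2 in TOP-1-depleted larvae (-1.33, adjusted p 0.000976), by a Wald test with the deposited SEs.

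Neighbouring genes were compared as a description of each chromosomal place. Up to 10 protein-coding genes on each side of a member with a mean of at least 10 were taken, 161 in the first table and 158 in the second. All 10 members lay below the median of their own neighbours in both comparisons, and 11 and 5 neighbours in all were lower than the member they flank. Of all genes of a member's chromosome class with a mean of at least 10, at most 16.3% and 8.62% were lower than it. Few lower neighbours would thus be found at most places, and the counts do not set the members apart from their surroundings. Beside mec-7, for example, 17 neighbours had a median log2 fold change of 0.73 and a lowest value of -0.74 in TOP-2-depleted larvae, with mec-7 itself at -2.03. The clearest exception was unc-86, which had 3 of its 14 neighbours below it in that comparison, as did mec-3 with 3 of 16.

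**Figure D3:**
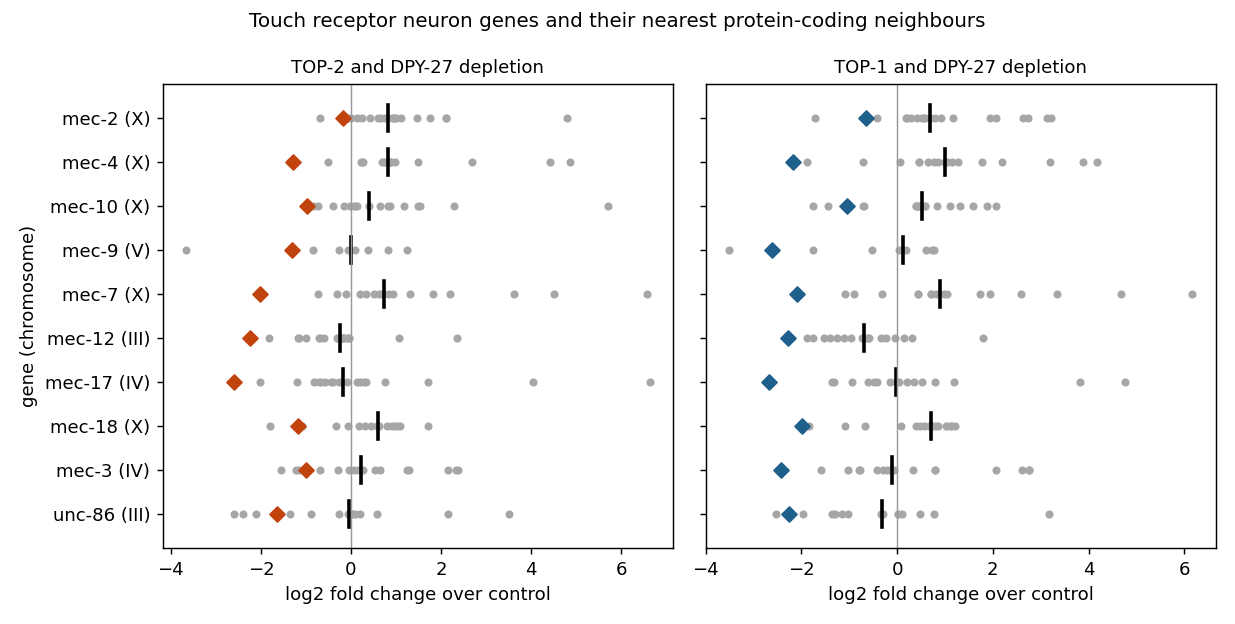
Log2 fold change over control (x axis) of each touch receptor neuron gene (diamonds) and of up to 10 protein-coding genes on each side of it (grey points, black bars are their medians), in TOP-2-depleted larvae (left) and TOP-1-depleted larvae (right). All 10 diamonds lie left of their neighbours' median in both panels, where at most 16.3% and 8.62% of all genes of a member's chromosome class were lower than it.

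Exons of 6 members overlap an exon of a gene on the opposite strand in the WBcel235 annotation, by between 0.173% and 10.7% of the member's exonic length. The longest overlap, 221 bases of mec-18 with C52B9.10, involves a gene with a mean of 18.4 normalized counts in the authors' deposited table. For mec-4 the partner aak-2, an AMP-activated kinase subunit gene, rose (0.87 ± 0.34 and 0.86 ± 0.33 in the authors' deposited tables, adjusted p 0.0464 and 0.032). The partner of mec-9, egl-47, shares 33 bases with it and was at -0.85 ± 0.48 and -1.76 ± 0.54 in the authors' deposited tables, the second passing at an adjusted p of 0.00545. For mec-17 the partner arf-5 did not pass in either (-0.67 ± 0.31 and -0.42 ± 0.30 in the authors' deposited tables). No source used here says whether reads were counted by strand. Tubulin genes are alike in sequence, so reads of mec-7 and mec-12 may also be shared with their relatives to an unknown extent.

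The direct comparison of both depletions asks whether the members differed between loss of TOP-2 and loss of TOP-1, each without DPY-27. All 10 differences (TOP-2 minus TOP-1 depletion) lay above 0, as did 53.3% of 13027 genes. Their median was 0.55, where the 13027 genes had a median of 0.04. But the differences of mec-12 and mec-17 came to -0.029 and -0.0063 once the median of their chromosome class was subtracted. The smallest differences were those of the microtubule genes, 0.06 ± 0.46 for mec-17, 0.05 ± 0.50 for mec-7 and 0.04 ± 0.48 for mec-12 (log2 ± SE), and that of mec-10, 0.05 ± 0.60. The other 6 members had differences from 0.48 for mec-2 to 1.42 for mec-3. In between were unc-86 at 0.62 ± 0.56, mec-18 at 0.81 ± 0.54, mec-4 at 0.90 ± 0.65 and mec-9 at 1.31 ± 0.55.

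With both SEs taken as independent, none of the 10 differences passed by the Wald test with Benjamini-Hochberg adjustment over 13027 genes (background 0.0691% of genes with a difference above 0 called), and 1 of 10, mec-9, was under an unadjusted p of 0.05 (p 0.0181, adjusted p 0.819), as were 4.62% of all genes, 3.12% with a difference above 0. This SE is overstated, because the control cancels in the difference. With a correlation of 0.5 between the fold changes, mec-9 passed (SE 0.39, adjusted p 0.0395; background 1.73%), and 3 of 10 had an unadjusted p under 0.05, with mec-3 at 0.00702 and mec-18 at 0.0324, where 12% of all genes did, 7.24% with a difference above 0. With the control's variance taken out of each SE by means of the solved levels, an alternative chosen after seeing the data, mec-9 again passed (adjusted p 0.0422; background 1.87%). The difference of mec-9 is a ratio of 2.47 between the depletions relative to the control, and its solved levels of 225 and 88.5 stand on the scales of the separate tables, which are 3.18% apart.

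For the microtubule genes the 95% intervals of the differences ran from -0.83 to 0.96 (mec-17), from -0.92 to 1.02 (mec-7) and from -0.89 to 0.97 (mec-12), so differences of nearly 2-fold are within them. The groups of genes with small and with larger differences were drawn after seeing the values, and the difference between them was not tested.

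**Figure D4:**
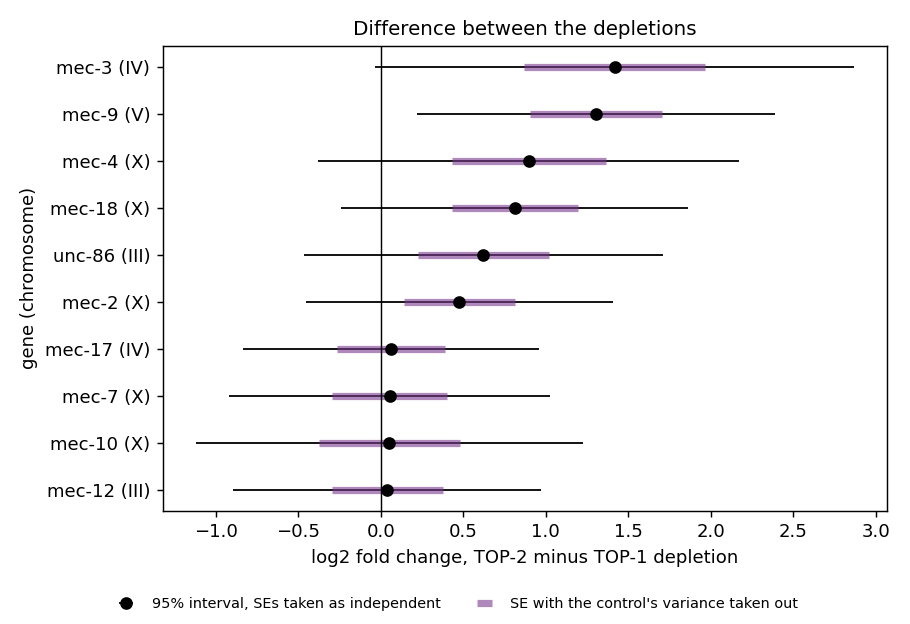
Log2 fold change in TOP-2-depleted minus TOP-1-depleted larvae (x axis) for each gene; thin lines are 95% intervals with both SEs taken as independent, thick bars the SE with the control's variance taken out. The points run from 0.04 for mec-12 to 1.42 for mec-3, and the thin line of mec-9 alone stays right of 0.

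Other genes of the touch neurons were followed as lists. For all list counts below, the background over all tested genes was 7.47% lower and 14.1% higher in TOP-2-depleted larvae. It was 12.8% lower and 17.1% higher in TOP-1-depleted larvae. Of 6 other mec genes, 2 fell in TOP-2-depleted larvae and 3 in TOP-1-depleted larvae, with medians of -0.72 and -1.03 and none higher. Of these, mec-1, a matrix protein gene needed to place the channel, was at -1.54 ± 0.45 and -2.31 ± 0.45 in the authors' deposited tables. The gene mec-14, related to aldo-keto reductases, was at -2.38 ± 0.86 and -2.92 ± 0.97, and mec-15, which codes for an F-box protein, was at -0.20 ± 0.37 and passed in the second at -1.16 ± 0.45 (authors' deposited tables). The matrix collagen gene mec-5, which the hypodermis and not the neuron makes, and the channel's accessory gene mec-6 are named for their roles, and neither passed. In the authors' deposited tables mec-5 was at -0.36 ± 0.37 and -0.31 ± 0.36 and mec-6 at -0.80 ± 0.54 and -0.91 ± 0.51.

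Of 5 further genes expressed in touch neurons, 4 fell in each comparison, with medians of -1.11 and -1.58. They were mtd-1 (-2.71 ± 0.34 and -2.98 ± 0.35), the neuropeptide gene flp-20 (-1.78 ± 0.38 and -1.62 ± 0.33), the vesicular glutamate transporter gene eat-4 (-1.11 ± 0.38 and -1.58 ± 0.41) and the tau-like gene ptl-1 (-1.02 ± 0.37 and -1.19 ± 0.36), all from the authors' deposited tables. Most of these genes are also used by other neurons. Of 7 regulators of the touch neuron fate, egl-46, zag-1 and pag-3 fell in both comparisons, with values between -1.20 and -1.50 in the authors' deposited tables. The other 4 did not pass in either (list medians -0.34 and -0.12). This list was not sorted by whether a gene promotes or represses that fate. On the X lie 4 of the 7, and measured from the medians of the chromosome classes the list medians were -0.89 and -0.80.

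Genes related by family to the members did not move as one. Of 28 other DEG/ENaC channel genes, 27 had an adjusted p in TOP-2-depleted larvae, of which 1 fell and 6 rose (median 0.73). In TOP-1-depleted larvae 2 of 26 fell and 6 rose (median 0.61). Those with the smallest adjusted p were del-5 (2.59 ± 0.41 and 3.09 ± 0.38), flr-1, an intestinal channel gene (1.47 ± 0.38 and 1.46 ± 0.39), and asic-2 (2.47 ± 0.71 and 2.64 ± 0.68), and acd-4 fell in both (-1.99 ± 0.57 and -2.20 ± 0.61, authors' deposited tables), with del-2 the other that fell in the second. Of 8 other stomatin genes, only unc-24 fell in either, by 1.20 ± 0.36 and 1.35 ± 0.39 in the authors' deposited tables, while 1 (sto-6) and 3 (sto-1, sto-3 and sto-6) rose (medians 0.27 and 0.32). But 7 of these 8 genes lie on the X, and measured from the medians of the chromosome classes the list medians were -0.27 and -0.36.

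Of 13 other tubulin genes, ben-1, a β-tubulin gene of neurons, fell by 1.44 ± 0.35 and 1.60 ± 0.35 and the ciliary α-tubulin gene tba-5 by 1.54 ± 0.42 and 2.24 ± 0.48 in the authors' deposited tables. On the higher side tbb-6 was at 1.71 ± 0.45 and 3.83 ± 0.38 in the authors' deposited tables, and tba-6 passed in TOP-2-depleted larvae alone. The other 9 and 10 did not pass, and the list medians were -0.43 and -0.30. Of 10 genes of tubulin modifying enzymes, 1 rose in the first comparison, ccpp-6, and 2 of 9 tested fell in the second, ttll-11 and ccpp-1 (medians 0.16 and -0.08). No gene of the list of spectrins and axon attachment passed in the first comparison, and of its 4 genes vab-10, a spectraplakin gene of the hypodermis, fell in the second (-1.37 ± 0.32 in the authors' deposited table; list medians -0.05 and -0.29).

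**Figure D5:**
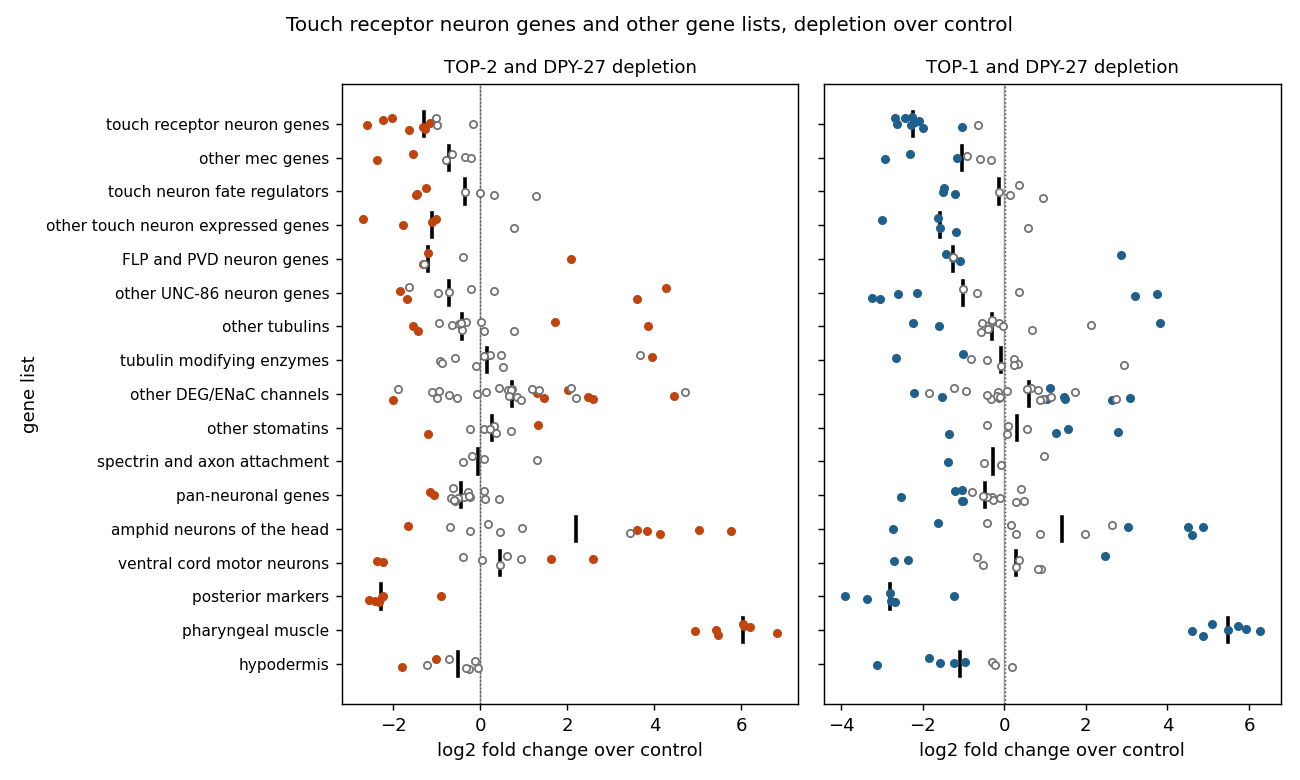
Log2 fold change over control (x axis) of every gene with an adjusted p in the touch receptor neuron set and 16 other lists (rows), in TOP-2-depleted larvae (left) and TOP-1-depleted larvae (right). Filled points passed an adjusted p of 0.05 and black bars are list medians; touch receptor neuron genes (-1.30 and -2.22) and posterior markers (-2.29 and -2.79) lie left, pharyngeal muscle genes (6.03 and 5.47) far right.

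Genes common to the nervous system had medians below 0 but nearer to 0 than the touch receptor neuron genes. Of 14 genes used by nearly all neurons, 2 fell in TOP-2-depleted larvae (ric-4 and unc-104) and 5 in TOP-1-depleted larvae (these and unc-64, rgef-1 and unc-31), with medians of -0.44 and -0.47 and none higher. Among all tested genes 7.47% fell and 14.1% rose in the first comparison, and 12.8% fell and 17.1% rose in the second. Their summed level was 45183 normalized counts in the control and 32264 after the first depletion, and 43859 and 36211 in the second comparison. The summed level of the 10 touch receptor neuron genes went from 29948 to 7611 and from 29071 to 6562. These sums rest mostly on the most abundant genes. In the first comparison's control, mec-7 and mec-12 stood at 11538 and 11255, and the most abundant gene of nearly all neurons at 14853. A test between the lists was not made.

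Other cell types that use MEC-3 or UNC-86 went in both directions. Of 5 genes of the FLP and PVD neurons, 2 fell and 1 rose in the first comparison and 3 fell and 1 rose in the second (medians -1.19 and -1.25). Of these, des-2 and deg-3, subunits of an acetylcholine receptor, fell in both comparisons (-1.31 ± 0.37 and -1.43 ± 0.34 for des-2, authors' deposited tables), and the third to fall in the second comparison was ser-2 (-1.08 ± 0.43, authors' deposited table). The receptor gene dma-1, which shapes the PVD dendrite, rose by 2.08 ± 0.51 and 2.85 ± 0.46 in the authors' deposited tables. Of 9 genes of other UNC-86 neurons, 2 fell and 2 rose in the first comparison and 4 fell and 2 rose in the second (medians -0.71 and -1.01). The genes that rose were cat-1 (4.26 ± 0.52 and 3.75 ± 0.58) and tph-1 (3.61 ± 1.14 and 3.22 ± 1.20, authors' deposited tables), the latter from a control level under 3 normalized counts. Both act in monoamine neurons, as does bas-1, which did not pass in either (0.32 ± 0.40 and 0.35 ± 0.39, authors' deposited tables).

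Markers of body regions moved far in these same comparisons. All 6 posterior markers fell in each comparison, with medians of -2.29 and -2.79, and their summed level went from 9154 to 2055 normalized counts and from 8882 to 1238. The Wnt genes lin-44 (-2.57 ± 0.35 and -3.37 ± 0.38) and egl-20 (-2.41 ± 0.39 and -3.90 ± 0.36) and the Hox gene php-3 (-2.25 ± 0.33 and -2.77 ± 0.33) are examples from the authors' deposited tables. All 7 pharyngeal muscle genes rose, with medians of 6.03 and 5.47, and their summed level went from 637 to 49708 and from 618 to 32984, so that transcripts of pharyngeal muscle were scarce in the control libraries beside either depleted group. None of the 7 was at 0, and the lowest control levels in the first and second comparison were 4.33 and 4.09 normalized counts, both for ceh-22. Of 8 hypodermis genes 2 (che-14 and lin-26) and 5 (these and dpy-7, dpy-13 and rol-6) fell and none rose (medians -0.52 and -1.09), and their summed level went from 46453 to 33243 and from 45050 to 22430. Genes of ventral cord motor neurons were mixed, with acr-5 and vab-7 of 9 lower in both comparisons, unc-55 higher in both and unc-30 higher in the first (medians 0.45 and 0.30, summed levels from 1998 to 1817 and from 1938 to 1363). Measured from the medians of the chromosome classes, the medians of this list were 0.08 and -0.38. The cell bodies of PLM lie in the tail and those of ALM, AVM and PVM along the body, but the part of these regional shifts in the fall of the touch neuron genes was not tested.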

How the data were processed

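The 4 libraries (2 of AM11 and 2 of AM12) are poly(A)-selected stranded RNA-seq, per the labels' protocols, and the values come from 2 comparison tables deposited by the authors. The mean normalized count, a signal that is never negative, the log2 fold change and the score columns (its SE and the Wald statistic) are the authors' own, per the file headers. Each p-value and adjusted p-value was deposited by the authors too. Adjusted p-values of single genes against the control are all from their DESeq2 test (version 1.30.0, per the submitters' processing notes, which also name HISAT2 2.2.1 and HTSeq 0.13.5). No coordinates are printed, as no source used here names the genome build, and WBcel235 (Ensembl release 115 and RefSeq) gave symbols, lengths, overlaps and gene order only. Of the gene names 98.1% matched it. No sequence is printed. Library totals are unknown, mean normalized counts total 15781972 and 15729010 in the tables, and over all genes the SE has a median of 0.481 and 0.461. Replicates are called biological in the design text, without more on separate cultures, so p-values measure the spread between these libraries.

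Calls use an adjusted p under 0.05. The difference between depletions is a Wald z of the difference of fold changes, adjusted by Benjamini-Hochberg over the genes whose mean reaches 10 in both tables (Python 3.11.15, SciPy 1.17.1). It was run on simulated data made with a correlation of 0.5, which cannot show that 0.5 holds in these libraries. The SE with the control's variance taken out was not simulated. The 10 genes and the 16 other lists (152 genes) were chosen with earlier results of these data known. All members were named. Of other lists, called genes could be named where 5 or fewer passed in a direction, else those with the smallest adjusted p, and a few uncalled genes were named for their role. Lists have counts, medians and in part summed levels, with no test.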

Additional observations from a re-analysis of the deposited data

How the results depend on the processing

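No paired analysis was possible because the tables hold no value per library, and for the same reason no replicate could be left out. The counts of members that fell were 5 to 8 in TOP-2-depleted larvae and 8 to 10 in TOP-1-depleted larvae over 5 alternatives each, a stricter threshold of 0.01, no filter, a minimum mean of 50, the chromosome class as null and a log2 fold change of at least 1, under which 678 to 1056 and 1276 to 1852 of all genes fell, against 1118 and 1904 as reported. At 0.01 the calls of mec-4 and mec-18 were lost in the first comparison and that of mec-10 in the second. The count of members differing between the depletions was 0 and became 1, mec-9, with a correlation of 0.5 (321 genes called in all, against 15) and also 1 with the control's variance taken out (358 genes), because both use a smaller SE. With the median of the chromosome class subtracted, the differences of mec-12 and mec-17 turned to -0.029 and -0.0063, adjusted p 1.00 for both. The median control level of the 10 genes was 702 normalized counts for 2 control libraries, and 788, 662 and 640 for 1, 3 and 4, which match the tables less well. Depth limits mec-3 most, at 18.6 normalized counts in its lowest group.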

Other observations

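Guanylate cyclase genes of sensory neurons were called in both directions. Of 5 soluble cyclase genes listed for neurons that use UNC-86, such as the oxygen-sensing URX, 2 fell in the first comparison and 4 in the second. In the authors' deposited tables gcy-32 was at -1.85 ± 0.44 in TOP-2-depleted larvae and at -3.05 ± 0.47 in TOP-1-depleted larvae, and gcy-35 was at -1.68 ± 0.51 and -2.61 ± 0.46. Both gcy-36 (-0.71 ± 0.53 and -2.13 ± 0.56) and gcy-37 (-0.98 ± 0.44 and -3.23 ± 0.53) passed in the second comparison alone, and gcy-34 passed in neither (-1.63 ± 0.78 and -0.67 ± 0.71, authors' deposited tables). For gcy-37 the difference between the depletions was 2.25 ± 0.69, with an unadjusted p of 0.00103 and an adjusted p of 0.253 by the Wald test with both SEs as independent.

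Of 3 receptor cyclase genes of the temperature-sensing AFD neurons, all 3 rose in the first comparison and 2 in the second. The authors' deposited tables had gcy-23 at 5.76 ± 0.88 and 4.88 ± 0.94 and gcy-18 at 5.02 ± 0.80 and 4.51 ± 0.88, and gcy-8 at 3.82 ± 0.78 and, not passing, at 1.98 ± 1.04 (adjusted p 0.144). Their control levels were between 2.23 and 5.73 normalized counts in the first table. Of the other receptor cyclase genes listed for amphid neurons, gcy-5 rose in both comparisons (4.14 ± 1.51 and 4.61 ± 1.43, authors' deposited tables). Neither gcy-6 nor gcy-22 passed in either comparison. In all, 5 of 12 amphid neuron genes tested rose and 1 fell in the first comparison, and 4 rose and 2 fell in the second, with medians of 2.196 and 1.42. Of the genes that fell, ocr-2, a TRPV channel subunit gene, was at -1.66 ± 0.48 and -2.71 ± 0.49 and ttx-1, the homeobox gene of AFD, at -1.63 ± 0.42 in the second (authors' deposited tables).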
